A study of Mus musculus with 6 samples.

Results

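The genes described here are 10 lysosomal proteins that process antigen: the cathepsins Ctsb, Ctsc, Ctsd, Ctsh, Ctsk, Ctsl, Ctss and Ctsz, the legumain gene Lgmn, and Ifi30, which encodes the thiol reductase GILT. They were taken by symbol, and all 10 were found among the 32285 genes counted in one cell fraction and among the 54752 genes counted in the other. The study measured single-cell 3′ RNA in lymph nodes (inguinal and axillary, C57Bl/6 mice) from animals that were tumour-free, carried a YUMM1.7 melanoma or carried a YUMMER1.7 melanoma. Both are mouse melanoma lines, YUMMER1.7 being the ultraviolet-mutated and more immunogenic derivative of YUMM1.7. From each arm, 1 library came from cells bound by CD11b and CD11c magnetic beads after collagenase digestion (the enriched fraction) and 1 from cells labelled as de-enriched for CD45 (the depleted fraction), although the protocol of the depleted fraction describes stroma as positively enriched with CD45 beads. Nodes of several mice were pooled into each library, and no age, sex or time after tumour injection is given in the sources used here.

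Antigen taken up by a cell is cut in endosomes and lysosomes by proteases that work in acid. GILT opens disulphide bonds so that the proteases reach the chain. Cathepsin S trims the invariant chain from MHC class II in B cells and dendritic cells, cathepsin L does so in thymic epithelium, and the exposed groove then receives peptide. Some cathepsins cut inside the chain (Ctsb, Ctsk, Ctsl, Ctss, the aspartic protease Ctsd and the asparagine-specific Lgmn), whereas others remove residues from its ends (Ctsc, Ctsh and Ctsz, with Ctsb also trimming the carboxyl end).

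In mm10 (GENCODE vM21), Ctss lies at chr3:95526786-95556403 and Ctsk just before it at chr3:95499256-95509362, both on the plus strand, with a gap of 17423 bases. Ctsb lies at chr14:63122462-63145923, Ctsc at chr7:88278085-88310888 and Ctsh at chr9:90054152-90076089, all on the plus strand. Ctsd lies at chr7:142375911-142388038, Ctsl at chr13:64359337-64370890, Ctsz at chr2:174427493-174439039, Lgmn at chr12:102394084-102439813 and Ifi30 at chr8:70762774-70766663, all on the minus strand. RefSeq promoters (GRCm38.p6, 250 bases before to 50 after the start) were found for 8 of the 10 members. The sequences of 3 of them are shown because these hold a motif tied to interferon or to the lysosome. Letters in capitals mark GAAANNGAAA, a pair of interferon response boxes, in Ctss (the 250 bases before the start, chr3:95526536-95526785, plus strand), and TCACGTGA, the palindromic core of the lysosomal CLEAR element, in Ifi30 (chr8:70766664-70766913, minus strand) and in a 30-base stretch of Ctsd (chr7:142387908-142387937, minus strand).
Ctss: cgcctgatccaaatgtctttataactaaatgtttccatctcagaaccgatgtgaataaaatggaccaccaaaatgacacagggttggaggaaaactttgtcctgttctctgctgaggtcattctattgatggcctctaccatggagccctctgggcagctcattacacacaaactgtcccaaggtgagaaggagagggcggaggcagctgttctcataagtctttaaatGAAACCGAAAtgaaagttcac
Ifi30: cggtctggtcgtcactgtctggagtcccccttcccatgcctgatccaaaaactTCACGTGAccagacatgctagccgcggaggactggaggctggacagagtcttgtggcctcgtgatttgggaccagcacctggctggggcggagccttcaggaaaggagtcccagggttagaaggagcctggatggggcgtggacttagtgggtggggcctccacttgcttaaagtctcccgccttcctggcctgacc
Ctsd: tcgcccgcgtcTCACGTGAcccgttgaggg
On both strands, GAAANNGAAA was found in 3.44% of 32851 promoters and TCACGTGA in 0.974%. The shorter CACGTG, which TCACGTGA contains, was found in 7.15%, and in 4 of the 9 member promoters (Ctsd, Ctsl, Ifi30 and Lgmn). These are matches of letters in a window, and no binding was measured. The Ctsd stretch lies before the RefSeq start but inside the Ctsd gene as GENCODE vM21 places it.

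Libraries held between 67709285 and 86471908 unique transcript counts (UMIs). After filtering, 9951, 7095 and 6466 cells were left in the enriched fraction and 12356, 8301 and 6541 in the depleted one, in the order naive, YUMM1.7, YUMMER1.7, which lists of 3 values follow throughout. Any pair of the 6 libraries shared between 0.0773% and 0.413% of the cell barcodes of the smaller one. With 1 library per arm no difference could be tested, so every ratio below compares pooled libraries, its 95% interval covers counting error only, and both tumour arms are set against the same naive library. Levels are UMIs of a gene per 1000000 UMIs of a cell class (CPM). In 3′ counting, UMIs need no correction for transcript length, so members are set side by side as counted. Other differences in counting between genes were not corrected. Classes were named from marker genes that exclude the members and are written as "-like". The naming rule left 5 clusters of the enriched and 2 of the depleted fraction without a name, the largest of them cluster 16 of the depleted fraction (4, 153 and 1643 cells, median 601 UMIs), and these enter no class. Stroma was scarce without a tumour: the depleted naive library held 8 fibroblastic-like, 21 lymphatic and 10 blood endothelial-like cells, so fibroblastic and blood endothelial-like levels are given for the tumour arms only, and stromal arms are compared between the tumours only.

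The members together made up 1.01% of macrophage-like UMIs in the naive library, 1.22% in YUMM1.7 and 1.24% in YUMMER1.7, the highest share of any class. Non-classical monocyte-like cells followed with 0.536%, 0.593% and 0.629% in the same order of arms. That rank depends on the clustering. At Leiden resolution 2, a finer one, this class had 165, 178 and 217 cells instead of 460, 1075 and 1109. The monocyte-like class then had 432, 873 and 899 cells and held the larger share of members in each arm. Plasmacytoid DC-like (pDC-like) cells of the depleted fraction held 0.523%, 0.541% and 0.588%, and monocyte-like cells 0.457%, 0.554% and 0.588%. Among the conventional dendritic cells, the type 2 cDC-like (cDC2-like) cells held 0.386%, 0.394% and 0.437%, whereas the cross-presenting type 1 cDC-like (cDC1-like) cells held 0.133%, 0.163% and 0.163%. B cell-like cells of the enriched fraction held 0.141%, 0.156% and 0.163%, and T cell-like cells, which present little exogenous antigen, 0.0533%, 0.0492% and 0.0543%. Macrophage-like cells differed widely in depth between arms, with a median of 1501 UMIs in naive, 12138.5 in YUMM1.7 and 16972 in YUMMER1.7. The part of depth in the macrophage-like differences between arms was not tested.

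The make-up of that pool also differed between classes. Ctsb was the leading member in macrophage-like cells, with 26.2% to 27.9% of member UMIs over the 3 arms. In migratory DC-like cells (Ccr7+ Fscn1+) of the enriched fraction Ifi30 led with 29.8% to 31.6%, followed by Ctss in the naive library (24.9%) and by Ctsh in both tumour libraries (21.7% and 24.7%). In pDC-like cells of the depleted fraction Ctsb, Ctsh and Ctsl shared the lead, each with 20.9% to 23.6%. Ctsl alone supplied 53.1% and 56.8% of member UMIs in blood endothelial-like cells of the YUMMER1.7 and YUMM1.7 arms, 34.8% and 40.4% in lymphatic endothelial-like cells, and 35.2% and 36.6% in fibroblastic-like cells.

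**Figure D1:**
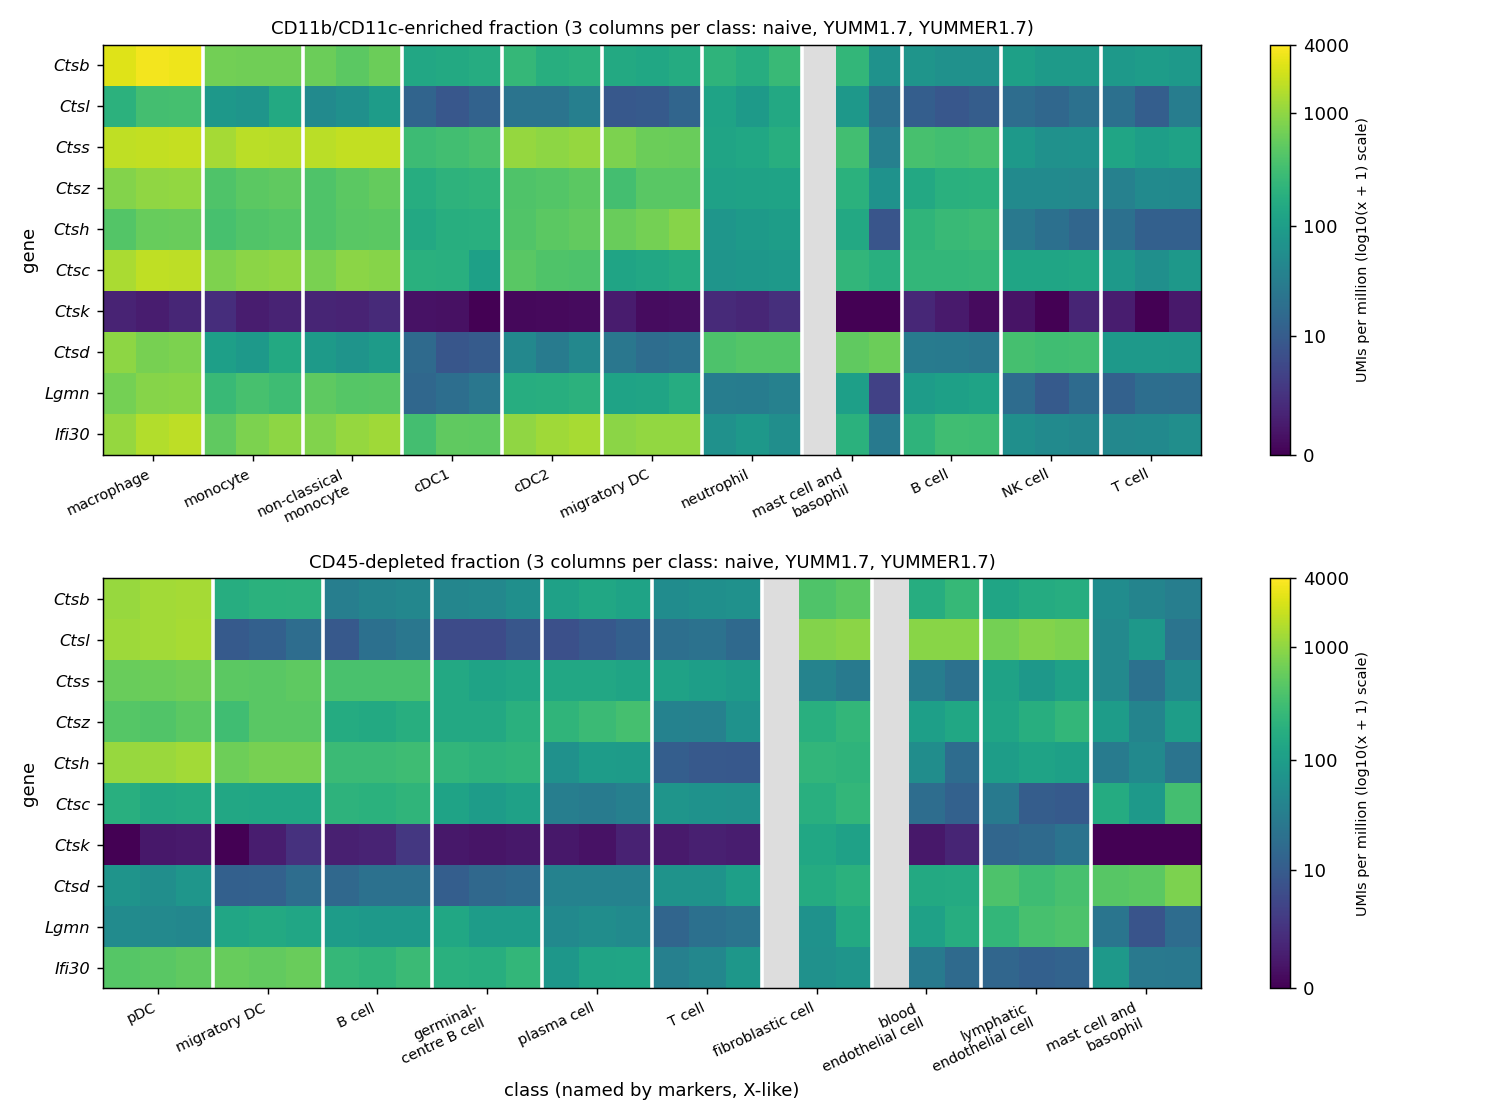
Level of each of the 10 genes by cell class, coloured by CPM (UMIs per 1000000) on a log10(x + 1) scale, with 1 column per arm (naive, YUMM1.7, YUMMER1.7) within each class and the fractions in separate panels. Grey marks libraries with under 20 cells of a class. Ctsb is brightest in macrophage-like cells, Ctsl in pDC-like and stromal cells, and Ctsk in fibroblastic-like cells.

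Cathepsin B, a cysteine protease that both cuts within chains and trims their ends, was above all a macrophage transcript. Its level in macrophage-like cells was 2649 CPM in naive, 3412 in YUMM1.7 and 3266 in YUMMER1.7. Monocyte-like cells held 689, 659 and 668 CPM and non-classical monocyte-like cells 614, 499.6 and 614 CPM. These ranges over the arms did not overlap, so within the enriched fraction the order of the 3 classes was the same in each arm. At Leiden resolution 2, a finer clustering, the order of the monocyte classes turned, with 1024, 999.9 and 1093 CPM in non-classical monocyte-like and 593.9, 536.3 and 559.2 CPM in monocyte-like cells. Below them the ranges of neutrophil-like cells (174 to 277 CPM), cDC2-like (179.5 to 249.1), cDC1-like (143 to 172) and migratory DC-like cells (139.5 to 161) overlapped from one to the next. In T cell-like cells of the same libraries Ctsb stood at 88.7 to 96.1 CPM. Complement C1q genes (C1qa, C1qb and C1qc), which define macrophages here, summed to 75.7, 43.6 and 32.5 CPM in those T cell-like cells against 6074, 8122 and 7508 CPM in macrophage-like cells. Scaled by C1q, macrophage RNA carried over into T cell-like droplets would give 33.0, 18.3 and 14.1 CPM of Ctsb. That scale leaves out RNA of monocyte-like and neutrophil-like cells, which also held Ctsb. The part of carried-over RNA in the T cell-like level was not tested.

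Ctsb moved in opposite directions in 2 classes. In macrophage-like cells it was higher than naive in YUMM1.7 (log2 ratio 0.37, 95% interval 0.33 to 0.40) and in YUMMER1.7 (0.30, 0.27 to 0.33). In cDC2-like cells its level was 249 CPM in the naive library, 179.5 in YUMM1.7 and 198 in YUMMER1.7, with ratios of -0.47 (-0.54 to -0.40) and -0.33 (-0.41 to -0.25). All 4 of these stayed short of a 1.5-fold difference. Both classes are mixtures. The cDC2-like cluster 7 carried 296, 225 and 254 CPM of Ctsb and cluster 11 carried 163, 140.4 and 149 CPM, and with the clusters weighted alike in each arm the cDC2-like ratios were -0.34 and -0.19. With the same weighting the macrophage-like ratios were 0.22 and 0.23.

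The macrophage-like class drew on different clusters in different arms. The naive library had 705 of its 985 macrophage-like cells in cluster 20 (Marco+ Cd209b+, a shallow cluster with a median of 1114 UMIs per cell), and over the 3 arms cluster 18 (Mertk+ Pf4+) held 213, 198 and 222 cells and cluster 23 (Cd5l+ Mrc1+) 58, 90 and 70 cells. Cluster 23 held the highest Ctsb of these clusters, at 3547, 5211 and 5492 CPM in the 3 arms. Cluster 20 held 2031, 2432 and 2484 CPM, and cluster 18 held 2594, 2450 and 2399 CPM. Ctsb was therefore higher with a tumour in clusters 20 and 23 and slightly lower in cluster 18. Lgmn, highest in cluster 23 as well (1205, 1371 and 1362 CPM), had macrophage-like ratios of 0.33 and 0.35. These came to 0.06 and 0.20 with clusters weighted alike. The class also contains cluster 8, with 31 cells in YUMM1.7, 42 in YUMMER1.7 and fewer than 20 in naive. Monocyte markers summed to 2834 and 2656 CPM in the tumour cells of cluster 8, against 721.5 and 1066 CPM in the whole class. All macrophage-like ratios with clusters weighted alike include cluster 8 and its few naive cells.

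**Figure D2:**
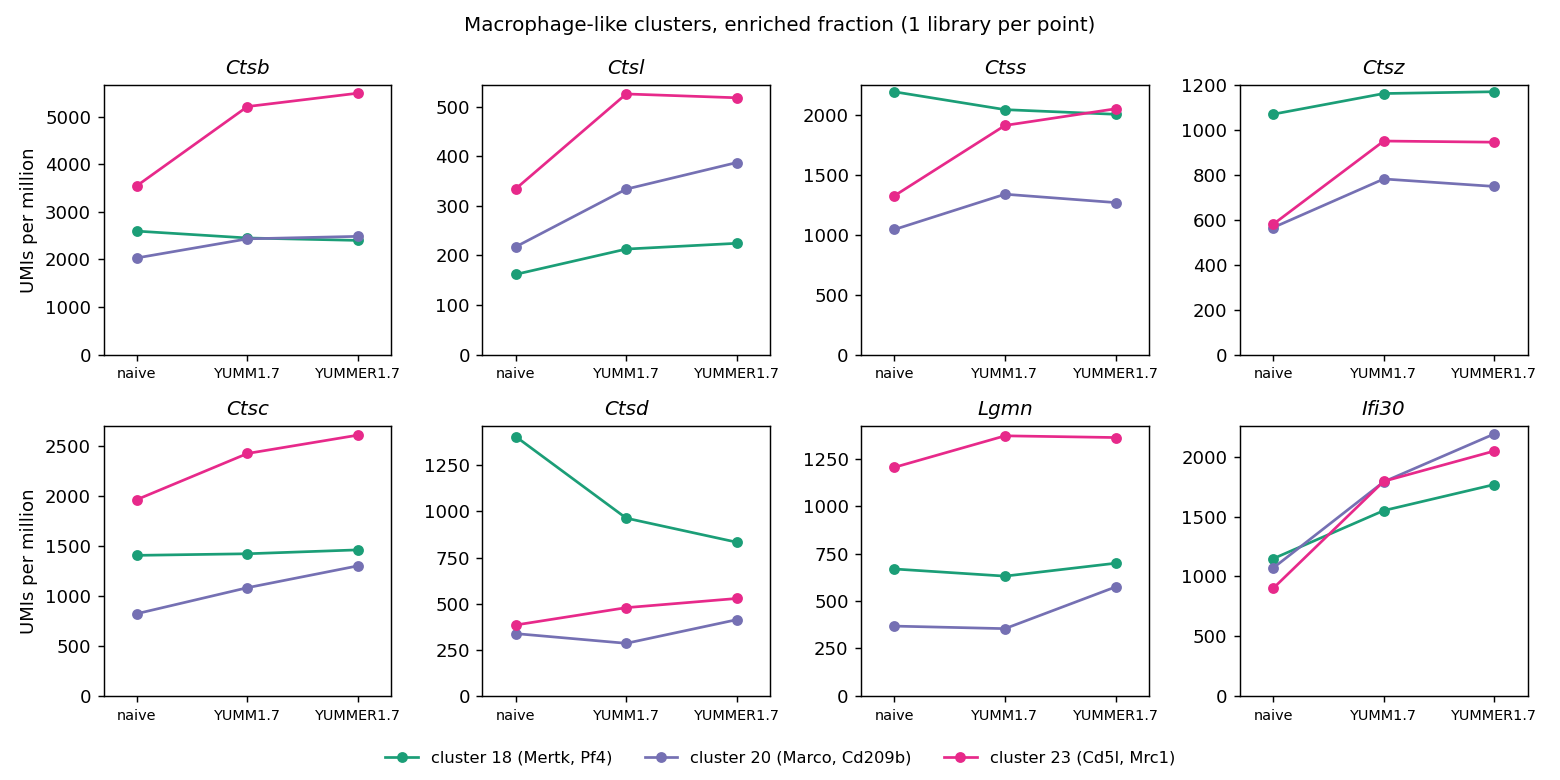
Level in CPM (y axis, from 0) of 8 members in the macrophage-like clusters 18, 20 and 23, with 1 point per library joined by a line for each cluster. Ctsb and Lgmn are highest in cluster 23 in each arm, Ctsd is highest in cluster 18, and Ifi30 is higher in both tumour arms than in naive in all 3 clusters.

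Cathepsin S, the invariant-chain protease of professional antigen-presenting cells, was spread over the whole myeloid compartment. Macrophage-like cells carried 1787, 1892 and 1943 CPM in the 3 arms, and non-classical monocyte-like cells 1699, 1861 and 1852 CPM. Monocyte-like cells carried 1316, 1719 and 1634 CPM. These ranges overlapped from one class to the next, so their order is not settled, and all lay above cDC2-like cells (1072, 990.4 and 1075 CPM). The migratory DC-like level came next, with 766 CPM in the naive library, 623 in YUMM1.7 and 603 in YUMMER1.7. cDC1-like cells, at 294 to 371 CPM, overlapped B cell-like cells of the same fraction (323 to 358 CPM).

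Between the arms, Ctss was higher than naive in monocyte-like cells, by log2 0.39 (0.33 to 0.44) in YUMM1.7 and 0.31 (0.26 to 0.37) in YUMMER1.7. Both of its clusters had that direction: cluster 10, led by interferon-induced genes, held 1691, 2075 and 2037 CPM, and cluster 14 held 1279, 1595 and 1560 CPM. In migratory DC-like cells of the enriched fraction the ratios were negative, at -0.30 (-0.34 to -0.26) and -0.35 (-0.39 to -0.30), and at -0.23 and -0.26 with clusters weighted alike. The migratory DC-like cells of the depleted fraction, with 298, 299 and 276 cells, did not show this: their levels were 492, 478.5 and 508 CPM, with ratios of -0.04 (-0.15 to 0.07) and 0.05 (-0.06 to 0.15). The fractions come from separate libraries and gene tables, and their difference was not tested. None of these Ctss differences reached 1.5-fold.

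Cathepsin L had a distribution unlike that of the other members. Within the depleted fraction it was highest in pDC-like cells, at 1194, 1280 and 1333 CPM in the 3 arms. The pDC-like class of the enriched fraction, named only at Leiden resolution 2, held 68.43 CPM in naive and 13.88 CPM in YUMM1.7. The difference between the fractions was not tested. In the depleted fraction, other classes were high as well. Fibroblastic-like cells carried 854 and 960.1 CPM in YUMM1.7 and YUMMER1.7, blood endothelial-like cells 902 and 907 CPM, and lymphatic endothelial-like cells 844 and 769 CPM. Macrophage-like cells, the highest class of the enriched fraction, carried 207.5, 338 and 351 CPM. The classes that present on MHC class II to T cells were low: B cell-like cells of the enriched fraction lay between 8.52 and 10.9 CPM, cDC1-like between 8.47 and 13.3 CPM and migratory DC-like between 8.69 and 14.2 CPM. After thinning each cell to 2000 UMIs, 91.0%, 87.0% and 89.7% of depleted pDC-like cells held a Ctsl UMI. Unthinned, the shares were 99.3%, 96.3% and 97.4%, and thinning left out 4, 1 and 1 shallower cells. In T cell-like cells of the same libraries, whose median depth was 5827, 5739.5 and 10626 UMIs against 8669, 9137 and 10577 in pDC-like cells, the thinned share was 4.35%, 6.11% and 4.23% (10.7%, 13.2% and 19.2% unthinned).

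Ctsl was more than 1.5-fold above naive in the YUMMER1.7 library in each macrophage and monocyte class. In macrophage-like cells the log2 ratio was 0.70 (0.60 to 0.81) in YUMM1.7 and 0.76 (0.66 to 0.86) in YUMMER1.7. With clusters weighted alike these were 0.52, short of 1.5-fold, and 0.64, and as a mean over cells 0.43 and 0.54. Monocyte-like cells held 83.1 CPM in naive, 74.9 in YUMM1.7 and 153 in YUMMER1.7, so that YUMMER1.7 alone was higher, with a ratio of 0.88 (0.66 to 1.09) to naive. Non-classical monocyte-like cells held 51.4, 62.6 and 97.1 CPM, with ratios of 0.29 (0.05 to 0.53) and 0.92 (0.70 to 1.15), but at Leiden resolution 2 the YUMMER1.7 ratio was 0.25. cDC2-like cells held 23.1, 22.99 and 34.7 CPM (ratios -0.01 and 0.59, the latter with an interval of 0.36 to 0.81). Migratory DC-like cells had a YUMMER1.7 ratio of 0.71 (0.39 to 1.02), on levels of 14.2 CPM or less.

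Cathepsin K, the collagen-degrading protease best known from osteoclasts, was a stromal transcript in these nodes. Fibroblastic-like cells carried 139 CPM in YUMM1.7 and 113 CPM in YUMMER1.7, and lymphatic endothelial-like cells 16.8 and 22.4 CPM. No class of the enriched fraction exceeded 2.35 CPM in any library. Within the fibroblastic-like class, cluster 19 held 270.3 and 222 CPM and cluster 24 held 84.2 and 86.8 CPM. The class ratio of YUMMER1.7 to YUMM1.7 was -0.30 (-0.45 to -0.16) and came to -0.11 with the clusters weighted alike. A thinned share of 16.9% and 15.2% of fibroblastic-like cells held a Ctsk UMI in YUMM1.7 and YUMMER1.7 (59.8% and 70.4% unthinned, with 10 and 11 cells left out and medians of 14575.5 and 21193.5 UMIs), against 0.194% and 0.326% of T cell-like cells.

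Cathepsin D, the lysosomal aspartic protease, was highest in macrophage-like cells at 983 CPM in naive, 731 in YUMM1.7 and 787 in YUMMER1.7. Like Ctsl and Ctsk, it was low in the dendritic cell-like classes of the enriched fraction. Mast cell and basophil-like cells of that fraction came after macrophage-like cells, with 522.2 to 627.3 CPM in the tumour arms (27 and 48 cells). Neutrophil-like cells followed with 388.5, 435 and 433 CPM and NK cell-like cells with 343, 313 and 327 CPM. In contrast, cDC2-like cells held 47.4, 30.4 and 46.5 CPM and cDC1-like cells 16.5, 8.23 and 9.74 CPM. In the depleted fraction mast cell and basophil-like cells led with 463, 494 and 771 CPM, above lymphatic endothelial-like cells (305 and 357 CPM in YUMM1.7 and YUMMER1.7) and NK cell-like cells (207.4, 366.4 and 338.9 CPM), whose ranges overlapped.

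In macrophage-like cells Ctsd was the only one of the 9 members with at least 50 UMIs that was lower than naive in both tumour libraries, with ratios of -0.43 (-0.48 to -0.37) and -0.32 (-0.38 to -0.27). This value turned with the weight given to cells: as a mean over cells, so that shallow cells count as much as deep ones, the ratios were -0.02 and 0.25. In cluster 18 Ctsd was 1406, 963.5 and 833 CPM in naive, YUMM1.7 and YUMMER1.7, while in cluster 23 it was 384, 478 and 528 CPM. cDC1-like cells had ratios of -1.0 (-1.64 to -0.39) and -0.76 (-1.44 to -0.11), and cDC2-like cells -0.64 (-0.81 to -0.47) and -0.03 (-0.20 to 0.15). Ctsd in cDC2-like cells was thus more than 1.5-fold lower in the YUMM1.7 library and near naive in the YUMMER1.7 library. Scaled by C1q, macrophage RNA carried over into cDC2-like droplets would give 19.2, 7.25 and 9.43 CPM of Ctsd in the 3 arms. In cDC1-like droplets it would give 6.58, 1.8 and 3.24 CPM. The part of such RNA in these differences was not tested.

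The exopeptidases came next. Cathepsin C, the dipeptidyl peptidase that activates granule proteases, was highest in macrophage-like cells (1389, 1788 and 1768 CPM), followed by monocyte-like (811, 949.7 and 1022 CPM) and non-classical monocyte-like cells (762, 946 and 890.3 CPM), whose ranges overlapped each other but not that of macrophage-like cells. At Leiden resolution 2 the non-classical monocyte-like class held 445.9, 435.1 and 493.2 CPM. The Ctsc level in cDC1-like cells was 192.5 CPM in naive and 189 in YUMM1.7, but 109 in YUMMER1.7. The YUMMER1.7 ratio there was -0.82 (-1.01 to -0.63) and the YUMM1.7 ratio -0.03 (-0.17 to 0.12). Thinned to 2000 UMIs per cell the YUMMER1.7 ratio was -0.25, and the share of cDC1-like cells with a Ctsc UMI was 24.2%, 27.6% and 22.2% (66.7%, 69.4% and 58.7% unthinned), against 14.9%, 8.76% and 17.9% of T cell-like cells. In cDC2-like cells Ctsc was lower in both tumour libraries (477, 407 and 398 CPM, ratios -0.23 and -0.26), and in macrophage-like cells higher in both (0.36 and 0.35).

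Cathepsin H, an aminopeptidase, was the only member with a dendritic cell-like class as its highest in the enriched fraction. Migratory DC-like cells of the enriched fraction led their fraction with 603, 714 and 874 CPM, above macrophage-like cells (439, 576 and 592.5 CPM) without overlap of the ranges. pDC-like cells of the depleted fraction held 1110.0, 1134 and 1278 CPM. cDC1-like cells, at 149.7, 183 and 188 CPM, held less than cDC2-like cells, at 414, 489.8 and 549 CPM. They also held less than B cell-like (226.5 to 295.6 CPM) and monocyte-like cells (354.4 to 446.9 CPM) of the enriched fraction. In migratory DC-like cells the ratios to naive were 0.24 (0.20 to 0.28) and 0.53 (0.50 to 0.57). Part of that difference followed the clusters: cluster 5 held 910.4, 893 and 996 CPM and cluster 2 held 409, 441 and 483 CPM, and with clusters weighted alike the ratios were 0.07 and 0.24. In the depleted fraction the ratios were 0.19 (0.09 to 0.28) and 0.20 (0.11 to 0.29).

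Cathepsin Z, a carboxypeptidase also called cathepsin X, lay above naive in migratory DC-like cells of both fractions, as Ctsh did. The enriched libraries held 331 CPM in naive, 476 in YUMM1.7 and 480.3 in YUMMER1.7, and the depleted libraries held 313, 472 and 479.6 CPM. The ratios were 0.52 (0.47 to 0.57) and 0.54 (0.49 to 0.59) in the enriched fraction, and 0.59 (0.47 to 0.72) and 0.62 (0.49 to 0.74) in the depleted fraction, where both passed 1.5-fold. With clusters weighted alike the enriched ratios were 0.43 and 0.41. Cluster 4 held 330.5, 449 and 442 CPM and cluster 5 held 378, 529.5 and 513.5 CPM, while the smaller difference in cluster 2 ran from 201 to 249 and 256 CPM. Thinned to 2000 UMIs, 41.0%, 49.6% and 54.5% of enriched migratory DC-like cells held a Ctsz UMI (79.9%, 83.4% and 87.5% unthinned, with 87, 46 and 48 cells left out), against 7.96%, 5.84% and 8.21% of T cell-like cells. Their median depth was 10253, 11047 and 11633 UMIs against 5765, 6149 and 6795 in T cell-like cells. The macrophage genes C1qa, C1qb and C1qc summed to 59.8, 35.9 and 33.9 CPM in the migratory DC-like cells of the enriched fraction. The part of carried-over macrophage RNA in the Ctsz differences was not tested.

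**Figure D3:**
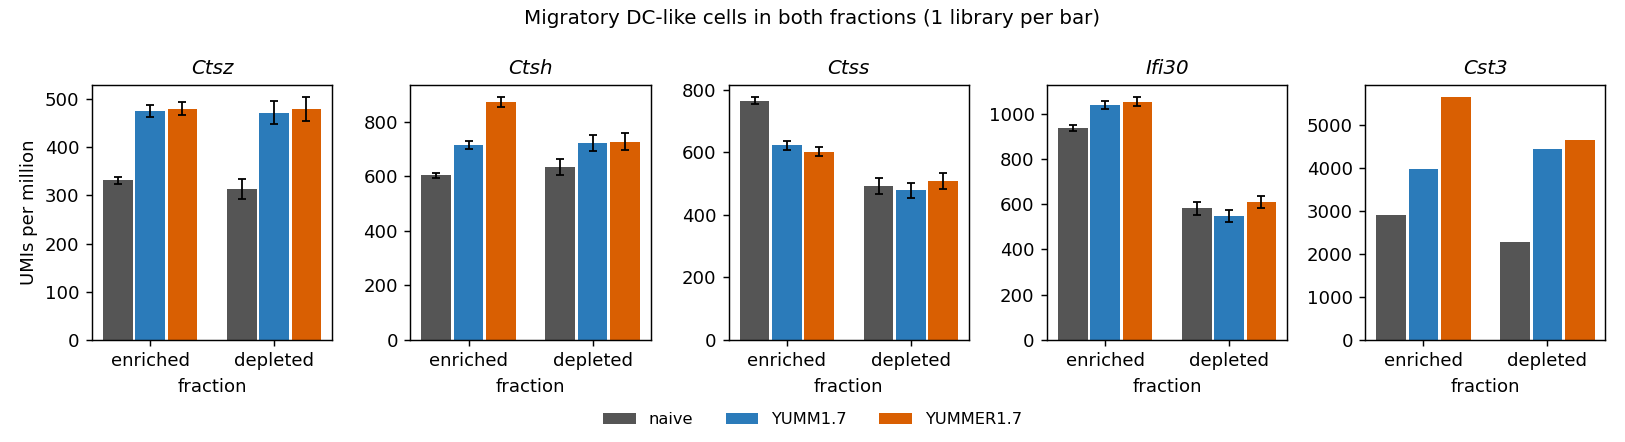
Level in CPM (y axis, from 0) of Ctsz, Ctsh, Ctss, Ifi30 and the inhibitor gene Cst3 in migratory DC-like cells, 1 bar per library and the fractions side by side, with exact Poisson 95% intervals on the 4 members and none drawn for Cst3. Ctsz is higher in both tumour arms in both fractions, while Ctss is lower with a tumour in the enriched fraction and close to naive in the depleted one.

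Legumain, which cuts after asparagine and also activates other cathepsins, was highest in macrophage-like cells (712, 895 and 909 CPM). The next classes in the enriched fraction were non-classical monocyte-like (515, 446 and 456 CPM) and monocyte-like cells (274, 352 and 299 CPM), without overlap between these ranges. Lymphatic endothelial-like cells led the depleted fraction with 357 and 399.8 CPM in YUMM1.7 and YUMMER1.7. cDC1-like cells were low, with 15.02, 19.3 and 25.9 CPM against 172, 179 and 205 CPM in cDC2-like cells. Their YUMMER1.7 ratio to naive was 0.78 (0.28 to 1.29), although the thinned share of cDC1-like cells with an Lgmn UMI (1.86%, 5.41% and 2.96%) was close to that of T cell-like cells (2.02%, 4.38% and 2.50%). Unthinned, 16.9%, 26.9% and 30.8% of cDC1-like cells held one.

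Ifi30, the reductase that precedes proteolysis, was above naive in the macrophage, monocyte and dendritic cell classes of the enriched fraction in both tumour arms. Neutrophil-like cells held little of it and showed no common direction, with 65.14, 81.68 and 59.93 CPM. Macrophage-like cells held 1072 CPM in naive, 1558 in YUMM1.7 and 1733 in YUMMER1.7, with ratios of 0.54 (0.49 to 0.59) and 0.69 (0.65 to 0.74). With clusters weighted alike these were 0.62 and 0.81. Cluster 18 held 1149, 1552 and 1770.0 CPM, cluster 20 held 1071, 1793 and 2194 CPM and cluster 23 held 901, 1797 and 2051 CPM, so each of the 3 clusters was higher with either tumour. Monocyte-like cells held 523, 770.5 and 980.0 CPM, with ratios of 0.56 (0.47 to 0.65) and 0.90 (0.82 to 0.99). Non-classical monocyte-like cells held 819, 1074 and 1240.0 CPM, with ratios of 0.39 (0.33 to 0.45) and 0.60 (0.54 to 0.65), but at Leiden resolution 2 that class (165, 178 and 217 cells) held 366.5, 502.4 and 562.7 CPM. In these 3 classes YUMMER1.7 lay above YUMM1.7.

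In cDC1-like cells Ifi30 was 332 CPM in naive, 525 in YUMM1.7 and 510.5 in YUMMER1.7, with ratios of 0.66 (0.56 to 0.76) and 0.62 (0.51 to 0.73). The thinned share of cDC1-like cells with an Ifi30 UMI was 44.7%, 60.0% and 62.2% (89.3%, 94.3% and 89.5% unthinned, with 10, 8 and 8 cells left out and medians of 19137, 23071 and 22534 UMIs). In T cell-like cells of the same libraries it was 6.83%, 15.3% and 7.50% (21.4%, 26.9% and 30.4% unthinned). The difference was smaller in cDC2-like cells (999, 1208 and 1360 CPM, ratios 0.27 and 0.44) and in migratory DC-like cells (937, 1039 and 1054 CPM, ratios 0.15 and 0.17). In migratory DC-like cells of the depleted fraction the ratios were -0.08 (-0.18 to 0.02) and 0.07 (-0.03 to 0.17). B cell-like cells of the enriched fraction held 219.9, 314.5 and 306 CPM (0.52 and 0.48), while those of the depleted fraction held 248, 228 and 286 CPM (-0.12 and 0.20).

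Counted over all classes with at least 50 cells in both libraries, most member and class pairs lay within 1.5-fold. In the enriched fraction, 3 of 96 member and class pairs were higher and 7 lower in YUMM1.7 than in naive, when 4.89% and 6.57% of all gene and class pairs were. In YUMMER1.7 against naive, 12 of 90 were higher and 4 lower, with 7.43% and 9.94% over all genes, and in YUMMER1.7 against YUMM1.7, 8 of 88 were higher and 1 lower, with 4.45% and 5.01%. In the depleted fraction 4 of 60 were higher and 1 lower in YUMM1.7 against naive (5.84% and 5.19% over all genes), and 13 of 55 higher and 0 lower in YUMMER1.7 against naive (8.79% and 10.3%). In YUMMER1.7 against YUMM1.7, 10 of 88 were higher and 5 lower (4.68% and 6.57%). The 12 higher pairs of YUMMER1.7 in the enriched fraction comprised Ctsl in 5 myeloid classes, Ifi30 in 4, Lgmn in cDC1-like cells, and Ctsl and Lgmn in T cell-like cells. The 2 T cell-like ones rested on low levels. The 13 higher pairs of YUMMER1.7 in the depleted fraction comprised 4 in T cell-like and 3 in plasma cell-like cells. Migratory DC-like cells gave 3 more, B cell-like cells 2 and germinal-centre B cell-like cells 1. Pairs within a class share their cells, and each naive library serves both tumour arms.

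**Figure D4:**
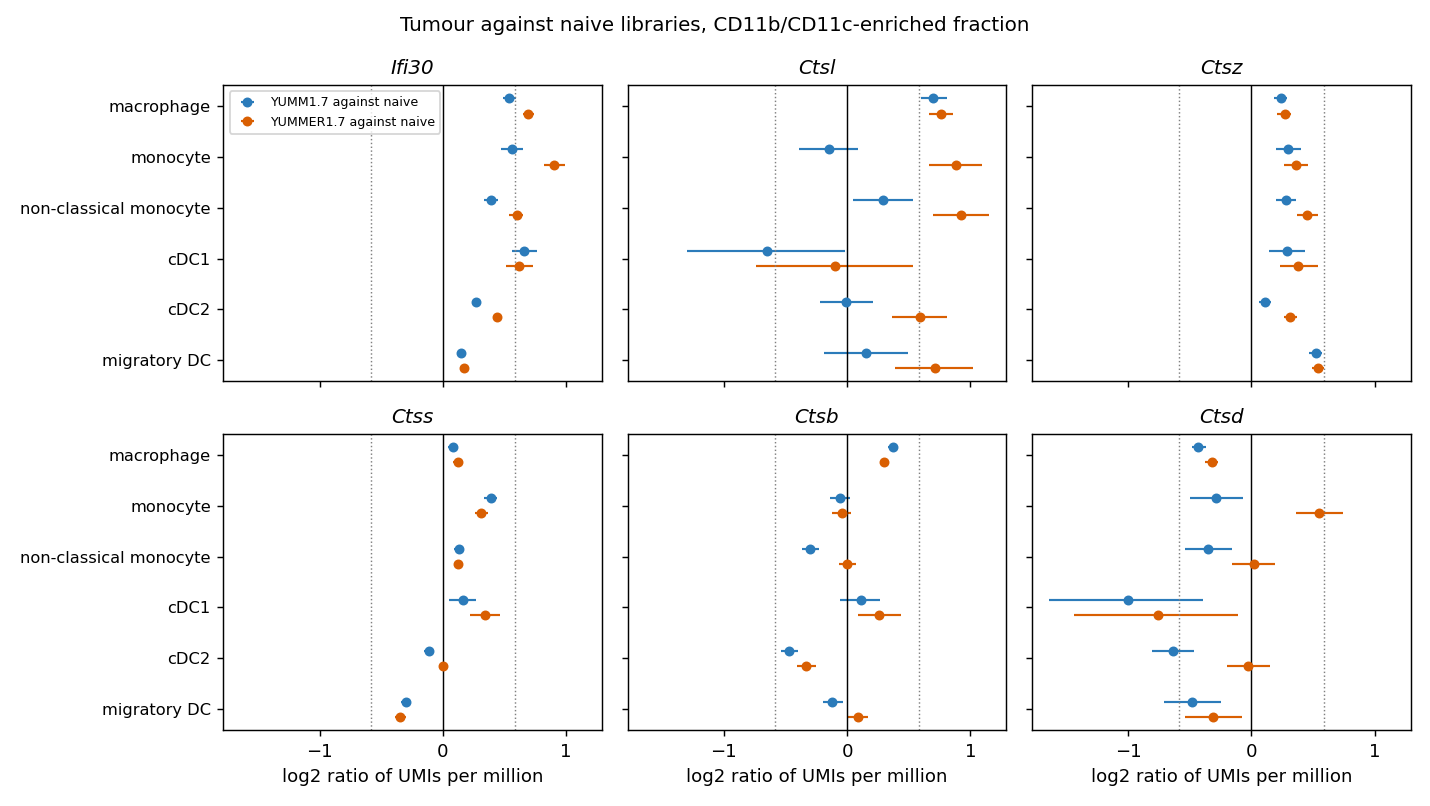
Log2 ratio of the level in each tumour library to the naive library (x axis) for Ifi30, Ctsl, Ctsz, Ctss, Ctsb and Ctsd in 6 myeloid classes of the enriched fraction, with exact 95% intervals for counting error as bars and dotted lines at 1.5-fold. Ifi30 and Ctsz lie above 0 in the 6 classes shown in both arms, and Ctsl lies past 1.5-fold in YUMMER1.7 in all but the cDC1-like class.

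pDC-like cells of the depleted fraction had no member past 1.5-fold in either tumour arm, where 5.3% and 5.56% of all genes were higher and 6.4% and 8.61% lower. Ctsb was 1104, 1246 and 1302 CPM, Ctss 606, 610.4 and 663 CPM, and Ctsz 455, 417.5 and 500.4 CPM in naive, YUMM1.7 and YUMMER1.7. Ratios to naive of the 9 members other than Ctsk ran from -0.35 (Ctsc in YUMM1.7) to 0.24 (Ctsb in YUMMER1.7). The enriched fraction had no pDC-like class at the resolution used here, but at Leiden resolution 2 it had one of 95, 43 and 11 cells. Its naive and YUMM1.7 cells held 330.9 and 218.6 CPM of Ctsb, 68.43 and 13.88 CPM of Ctsl, and 1737 and 2150.0 CPM of Ifi30. Plasma cell-like cells held 79.8, 125 and 129.8 CPM of Ifi30 (ratios 0.65 and 0.70) and 224, 281.5 and 342 CPM of Ctsz (0.33 and 0.61). With the 2 plasma clusters weighted alike the Ctsz ratios were 0.12 and 0.37 and the Ifi30 ratios 0.44 and 0.43.

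Some lymphocyte differences of the depleted fraction moved together with the level of fibroblastic markers. Ctsl in B cell-like cells was 9.04, 20.3 and 25.9 CPM in naive, YUMM1.7 and YUMMER1.7, and Ctsk was 1.06, 1.31 and 2.89 CPM. The Ctsl ratios were 1.17 and 1.52, and 0.88 and 0.57 with clusters weighted alike. The 10 fibroblastic markers summed to 5.62, 169 and 312 CPM in the same B cell-like cells, and to 28243 and 28303 CPM in fibroblastic-like cells of the tumour arms. On that scale free fibroblastic RNA would give 5.10 and 10.6 CPM of Ctsl and 0.831 and 1.24 CPM of Ctsk in YUMM1.7 and YUMMER1.7. The scale leaves out RNA of endothelial-like cells, which also held much Ctsl. The part of free RNA in the differences from naive was not tested. In T cell-like cells of the depleted fraction Ifi30 was 35.9, 45.1 and 80.2 CPM, a YUMMER1.7 ratio of 1.16 that came to 0.25 with clusters weighted alike.

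Within stroma, legumain was higher in YUMMER1.7 than in YUMM1.7 in fibroblastic and blood endothelial-like cells. Fibroblastic-like cells held 67.8 CPM of Lgmn in YUMM1.7 and 155 CPM in YUMMER1.7 (log2 1.19, 1.01 to 1.38). Both fibroblastic-like clusters were higher in YUMMER1.7: cluster 19 went from 76.2 to 209 CPM and cluster 24 from 64.2 to 142 CPM. Blood endothelial-like cells held 113 and 176 CPM (0.64, 0.39 to 0.90). In the same class Ctsh, Ctss, Ifi30 and Ctsc were lower by at least 1.5-fold in YUMMER1.7. Over all classes of the depleted fraction, 6.57% of gene and class pairs were, and the share for this class alone is not given here. Ctsh stood at 57.75 and 18.07 CPM (-1.68, -2.16 to -1.20, and -0.81 as a mean over cells). Ctss stood at 32.61 and 21.3 CPM (-0.61, -1.15 to -0.07, but -0.02 as a mean over cells). Ifi30 stood at 29.9 and 16.72 CPM (-0.84) and Ctsc at 18.35 and 12.14 CPM (-0.60), and as a mean over cells both turned, to 0.19 and 0.22. The rest of the fibroblastic-like members lay within 1.5-fold: Ctsb was 400 and 498 CPM (0.32), Ctsz had a ratio of 0.37 and Ctsl of 0.17. Summed C1q, the macrophage marker, was at most 5.15 CPM in the fibroblastic and endothelial-like classes.

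Lymphatic endothelial-like cells fell into 2 clusters that divided the members. Cluster 22, which carries floor markers, held 194 and 224 CPM of Ctss in YUMM1.7 and YUMMER1.7, whereas cluster 21 held 15.8 and 11.6 CPM. Ctsl showed the opposite order, with 501 and 490.3 CPM in cluster 22 and 1044 and 1034 CPM in cluster 21. Ctsh was also higher in cluster 21 (149.9 and 148 CPM against 74.7 and 69.5), while Ctsz was higher in cluster 22 (254 and 312 CPM against 134 and 171). Lgmn was close in both (369.9 and 391 CPM in cluster 21, 336 and 409 CPM in cluster 22). The class ratio of Ctss between the tumours, 0.50 (0.31 to 0.70), came to 0.16 with the clusters weighted alike. C1q summed to 5.29 and 9.34 CPM in cluster 22.

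**Figure D5:**
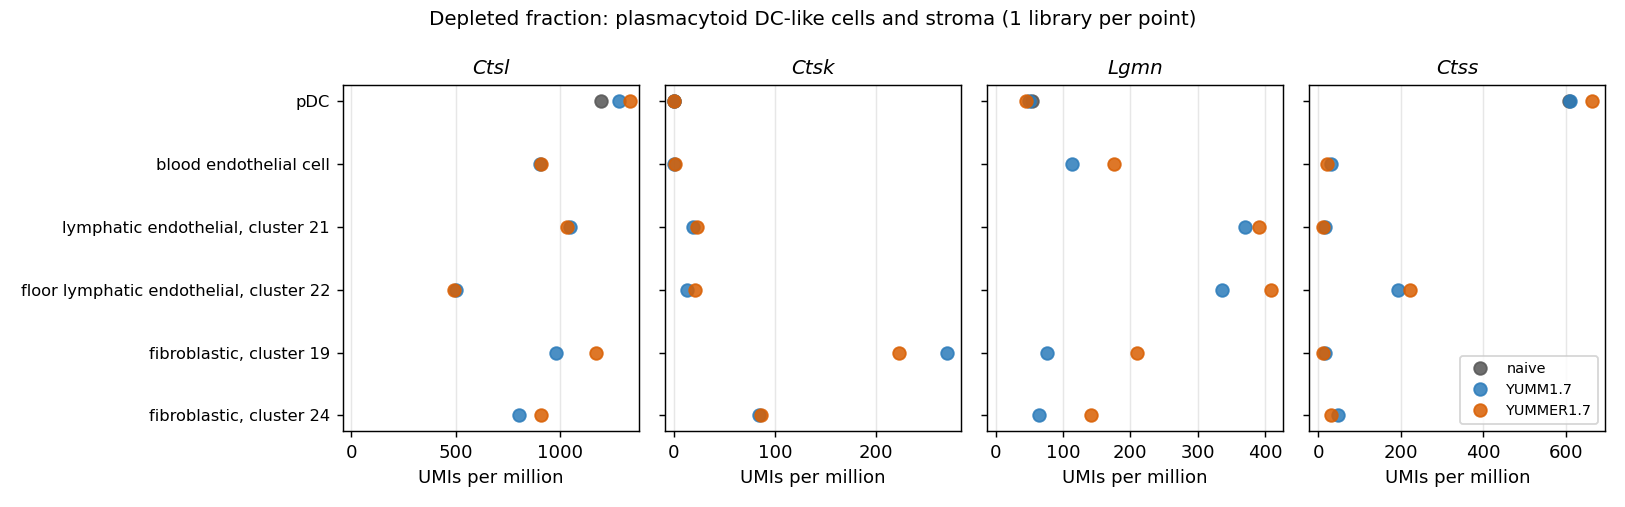
Level in CPM (x axis, linear, from 0) of Ctsl, Ctsk, Lgmn and Ctss in pDC-like, blood endothelial-like, lymphatic endothelial-like (clusters 21 and 22) and fibroblastic-like cells (clusters 19 and 24) of the depleted fraction, 1 point per library. Ctss is higher in cluster 22 than in cluster 21, Ctsk is highest in cluster 19, and Lgmn is higher in YUMMER1.7 in both fibroblastic-like clusters.

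Genes that work with the members were taken from 6 lists. Of the inhibitors of cysteine cathepsins, 4 had at least 50 UMIs in migratory DC-like cells of the enriched fraction. There, 1 was higher and none lower in YUMM1.7 (6.51% and 5.16% of all genes, list median 0.49 against -0.02 over all genes), and 3 were higher and 1 lower in YUMMER1.7 (8.27% and 10.3%, median 0.83 against -0.05). Cst3, which encodes the secreted inhibitor cystatin C, stood at 2896, 3978 and 5656 CPM in naive, YUMM1.7 and YUMMER1.7, and at 2276, 4435 and 4663 CPM in the depleted fraction. It was highest in cDC1-like cells, with 11116, 10727 and 13272 CPM, a class in which the members were low. Cstb, the cytosolic inhibitor stefin B, was 532, 457 and 326 CPM in migratory DC-like cells. Cst7, encoding the endolysosomal inhibitor cystatin F, was 11.7, 23.05 and 32.9 CPM in cDC2-like cells, where Serpina3g, a serpin that inhibits cathepsins, was 52.4, 78.1 and 96.4 CPM.

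The class II loading list had all 10 genes measured in migratory DC-like cells. In the enriched fraction 5 were higher and none lower in each tumour arm, with medians of 0.65 and 0.51 against -0.02 and -0.05 over all genes, of which 6.51% and 8.27% were higher and 5.16% and 10.3% lower. In the depleted fraction 0 were higher or lower in YUMM1.7 (5.46% and 6.91% of all genes, median -0.50), and 6 were lower and none higher in YUMMER1.7 (8.44% and 6.6%, median -0.72). Ciita, the transactivator of class II genes, was 29.0, 68.8 and 62.9 CPM in the enriched and 66.2, 46.2 and 29.9 CPM in the depleted fraction, so its direction differed between the fractions. H2-Oa, which restrains peptide exchange, was 8.602, 19.6 and 21.5 CPM in the enriched fraction. Cd74, the invariant chain that cathepsin S trims, was 3330.0, 3775 and 3466 CPM there.

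Of 17 lysosomal membrane and acidification genes in macrophage-like cells none differed by 1.5-fold in either arm (medians 0.02 and 0.05 against -0.04 and -0.05 over all genes, of which 3.36% and 4.59% were higher and 5.28% and 5.99% lower). Of the hydrolases and cofactors in the same class, 0 of 23 were higher in YUMM1.7 and 1 of 23 in YUMMER1.7, and none was lower. In monocyte-like cells 3 of 22 were higher in YUMM1.7 and 5 of 23 higher with 1 lower in YUMMER1.7 (6.9% and 11.1% higher and 5.86% and 9.06% lower over all genes, medians 0.22 and 0.35 against 0.02 and 0.00). Acp5, a lysosomal acid phosphatase, was 8.43, 18.6 and 22.2 CPM in them. In cDC2-like cells Psap, the saposin precursor, was 1512, 771 and 778 CPM. Of the 4 lysosomal transcription factors in cDC2-like cells, 2 were lower in YUMM1.7 and 3 in YUMMER1.7 (7.5% and 10.6% lower over all genes). Mitf, one of them, stood at 154, 57.95 and 54.7 CPM.

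Among the remaining cathepsins, Ctsw, a protease of cytotoxic lymphocytes, was 266, 347 and 392.5 CPM in NK cell-like cells. Ctse, an aspartic endosomal protease, was 81.0, 99.4 and 85.0 CPM in B cell-like cells of the enriched fraction. Ctsa, the carboxypeptidase that protects lysosomal glycosidases, was 287, 371 and 348.5 CPM in macrophage-like cells.

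Several members were most like each other in their pattern. Over 32 class and library points of 11 enriched classes, which share libraries and clusters, the Pearson correlation of log2(CPM + 10) between Ctsz and Ifi30 was 0.962, and that was the closest match of either. Ctss was closest to Ctsz (0.949), then to Myof (0.945) and Lgmn (0.936), and Ctsh to Ifi30 (0.948), Ctsz (0.945) and Cd86 (0.931). Genes near Ctsb were Camk1 (0.947) and Grn (0.943), which encodes the lysosomal protein progranulin. Ctsc was nearest to Lifr (0.953), Ehd4 and Adam17 (0.945 each), Lgmn to Slc15a4 (0.939), Ctsl to Ninj1 and C3 (0.936 each), and Ctsd to Gbp7 (0.913). Ctsk, near 0 in these classes, had no close match, its highest being 0.720 with Ctdsp1.

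Some counts could be shared with neighbouring genes. Fdft1 overlaps Ctsb and Nelfcd overlaps Ctsz on the opposite strand, and the use of strand in counting is not given in the sources used here. Fdft1 had 2913 UMIs in the enriched fraction against 120806 of Ctsb, and Nelfcd 3066 against 97210 of Ctsz.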

How the data were processed

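The authors deposited 1 matrix of UMI counts (genes by cell barcodes) for each library. The submitters' processing notes name Cell Ranger 8.0.1 and mm10. Per the file headers the depleted fraction was counted with version 7.0.0 and the enriched fraction with 8.0.1, so the fractions were kept apart. How cells were called and how reads shared by genes were treated is not given in the sources used here.

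Kept cells had 500 or more UMIs, 300 or more genes and no more than 10% of UMIs from mitochondrial genes. Doublets were scored with Scrublet (scanpy 1.11.5), whose automatic thresholds marked 0% to 2.47% of cells, so cells above the 95th percentile of scores were removed from each library (4.37% to 4.94%). Each fraction was clustered on 2000 variable genes, from which the 10 members were left out (30 principal components, 15 neighbours, Leiden resolution 1). Markers of 25 classes named a cluster when 3 or more of a class were detected in at least 10% of its cells with a log2 fold above 0.5 and led those of other classes. Clusters that were mixed, or shallow without leading markers, stayed unnamed. The naming and doublet rules were settled with the data in view. No correction for free RNA was made.

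Per class and library, UMIs were added up and scaled to CPM. Levels have exact Poisson, ratios exact conditional binomial and shares Clopper-Pearson 95% intervals, computed with scipy 1.17.1 and checked on simulated counts. A ratio was counted as past 1.5-fold with at least 50 UMIs over both libraries and 50 cells in each. Levels needed 20 cells. Sequences are those of RefSeq. All 10 members are named. Of the 6 companion lists the 2 largest and 2 smallest ratios of a class, or a partner or inhibitor of a member, could be named, and for each member up to 3 genes of highest correlation among genes with a mean of at least 20 CPM. The members and lists were chosen with earlier results of these data known.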

Additional observations from a re-analysis of the deposited data

Results flagged for a closer look

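In these cases a member was above naive in both tumour libraries in one class and below naive in both in another, with 1 library per arm and the naive library shared. The difference between the classes was not tested in any of them. Values are log2 ratios to naive for YUMM1.7 and then YUMMER1.7, in the enriched fraction unless stated.

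Ctsb was -0.47 and -0.33 in cDC2-like cells and 0.37 and 0.30 in macrophage-like cells. Ctsc was -0.23 and -0.26 in cDC2-like cells and 0.36 and 0.35 in macrophage-like cells. Ctsd was -1.0 and -0.76 in cDC1-like cells and 0.16 and 0.16 in neutrophil-like cells. Ctss was -0.30 and -0.35 in migratory DC-like cells and 0.39 and 0.31 in monocyte-like cells. Lgmn was -0.21 and -0.18 in non-classical monocyte-like cells and 0.33 and 0.35 in macrophage-like cells, though at Leiden resolution 2 the former were 0.13 and 0.08. In the depleted fraction Lgmn was -0.49 and -0.49 in germinal-centre B cell-like cells and 0.53 and 0.73 in T cell-like cells.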

How the results depend on the processing

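Of 68 ratios past 1.5-fold, 58 kept their sign under every alternative that gave a value, and 10 turned under at least 1. A kept sign does not mean a kept size. Over 150 ratios, these 68 and others named, 262 of 1443 alternative values left the interval of the main value and 13 turned. Thinning gave 59 of the former and 4 of the latter. At a 2-fold limit the counts of members fell from 10 to 1 of 96 (YUMM1.7 against naive), 16 to 0 of 90 (YUMMER1.7 against naive) and 9 to 2 of 88 (YUMMER1.7 against YUMM1.7) in the enriched fraction. In the depleted one they fell from 5 to 1 of 60, 13 to 3 of 55 and 15 to 6 of 88. With cells thinned to 2000 UMIs fewer pairs had enough UMIs. The counts were then 9 of 81 for YUMMER1.7 against naive in the enriched fraction, and 3 of 48, 8 of 44 and 8 of 67 in the depleted one. Leiden resolution 2 gave 8 of 69 for YUMM1.7 against naive in the depleted fraction. Shares over all genes were not computed at these settings. In blood endothelial-like cells, YUMMER1.7 against YUMM1.7, Ctsc was 0.22 as a mean over cells and 0.16 without removal of doublets, and Ifi30 was 2.03 thinned and 0.19 as a mean over cells. In depleted migratory DC-like cells, thinning turned Ctsd to -0.03 (YUMMER1.7 against naive) and Ctsl to -0.04 (YUMMER1.7 against YUMM1.7). In depleted T cell-like cells, weighting clusters alike, an alternative chosen after seeing the data, turned Ifi30 to -0.06 (YUMMER1.7 against YUMM1.7). In enriched lymphocytes the alternative without removal of doublets gave Ctsh 0.94 in NK cell-like (YUMMER1.7 against naive) and 0.10 in T cell-like cells (YUMM1.7 against naive, 0.16 thinned), and Lgmn 0.49 in NK cell-like cells (YUMM1.7 against naive) and -0.48 and -0.12 in T cell-like cells (YUMM1.7 and YUMMER1.7 against naive). The cause was not tested in any of these. No paired analysis was possible because each fraction holds 1 library per arm. Members of few UMIs, such as Ctsk outside stroma and Ctsd and Ctsl in dendritic cells, are limited by depth.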

Other observations

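Clusters without a class name also held members. Cluster 13 of the enriched fraction, a shallow cluster (median 1378.5 UMIs; 495, 299 and 234 cells in naive, YUMM1.7 and YUMMER1.7) led by Lyz1, Pla2g2d and Tgm1, held 1485, 1376 and 1455 CPM of Ctsb and 1046, 799 and 829.5 CPM of Ctsd. Its Lgmn was low, at 69.2, 81.0 and 66.8 CPM. Ifi30 in cluster 13 was 802.5 CPM in naive, 1107 in YUMM1.7 and 1313 in YUMMER1.7. Cluster 22, led by cell-cycle genes such as Top2a and Birc5 (115, 215 and 178 cells), held 1033, 1172 and 1248 CPM of Ifi30 and 529, 465.5 and 494 CPM of Ctss.

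In the depleted fraction cluster 16, with a median of 601 UMIs per cell, held 361 and 445 CPM of Ctsl and 33.6 and 33.9 CPM of Ctsk in YUMM1.7 and YUMMER1.7. Cluster 11 of that fraction (137, 177 and 105 cells) held 74.7, 33.3 and 286.5 CPM of Ctsd, and summed C1q of 378, 0.821 and 521 CPM.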
